A study of Mus musculus with 4 samples.

Results

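The myocyte enhancer factor 2 genes Mef2a, Mef2b, Mef2c and Mef2d and the histone deacetylase gene Hdac4 were followed through the H3K27ac peak lists of chondrocytes and of the other cells of the same tissues. H3K27ac is an acetylation of histone H3 found at active promoters and enhancers. The 5 genes are 5 of the 21757 protein-coding genes of the annotation, and were taken by name. Every peak in the body of a gene or within 150 kb of its main start site, that of the transcript marked as canonical, was assigned to it. Overlapping peaks of the 4 lists were joined, which gave 86 regions at the 5 genes out of 62558 in the genome. A region was called promoter where it touched a promoter window, 2 kb before to 500 bp after a start site of a protein-coding gene. The 86 were made up of 8 regions at the main promoters of the 5 genes, 6 at alternative promoters of the same genes, 16 at promoters of neighbours and 56 that were distal.

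The cells came from E14.5 mouse fetuses made by tetraploid aggregation from 1 embryonic stem cell line (G4). All fetuses carried the same homozygous sensor, an EGFP gene behind a minimal beta-globin promoter inserted upstream of Col2a1, so that EGFP follows the regulatory sequences of this cartilage collagen gene. Limbs (upper and lower limb and digits) and trunks (neck to tail, internal organs removed) were pooled, dissociated and sorted into EGFP+ and EGFP- cells. The labels name no treatment, and the EGFP- fractions hold every other cell type of the limb or trunk. H3K27ac ChIP-seq was made once per population, so that limb EGFP+, limb EGFP-, trunk EGFP+ and trunk EGFP- each have 1 library and 1 peak list, no replicate error exists, and no test between populations was possible. Limb and trunk libraries ran on separate lanes, and an effect of the tissue cannot be told apart from one of the lane. The trunk EGFP- sample is taken as replicate 1 after its label, although its peaks are named "Rep2". The 4 lists held 40899, 34360, 36231 and 30716 peak intervals in the order limb EGFP+, limb EGFP-, trunk EGFP+ and trunk EGFP-, with medians of 24 to 26 reads at a summit. In sorted bulk cells a mark on fewer cells and a weaker mark per cell cannot be told apart.

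MEF2 proteins are DNA-binding factors of the MADS box family, first known for switching on muscle genes together with the myogenic bHLH factors. MEF2C and MEF2D also drive the hypertrophy of growth plate chondrocytes, the enlargement that precedes mineralization and the replacement of cartilage by bone. HDAC4, a class IIa histone deacetylase, binds MEF2 and RUNX2 and holds them back, and loss of HDAC4 leads to early hypertrophy. Phosphorylation by kinases such as the salt-inducible kinases keeps HDAC4 in the cytoplasm, and PTHrP signalling lets it enter the nucleus. The same antagonism sets fibre type and regeneration in muscle.

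**Figure D1:**
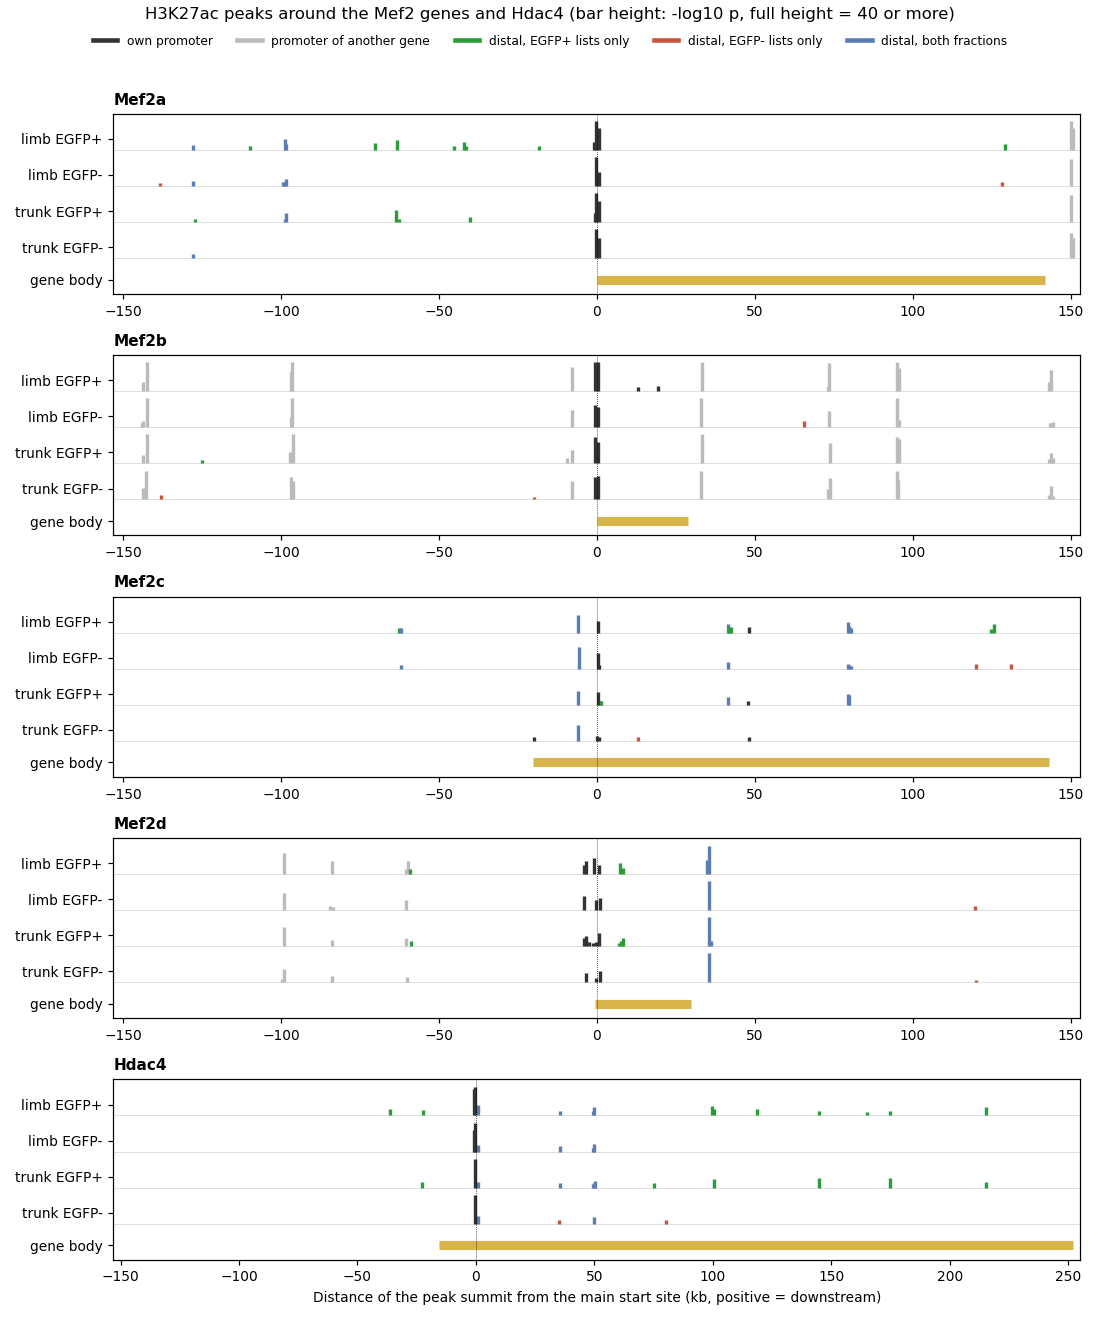
Peaks at the 5 genes, plotted by the distance of each peak summit from the main start site in kb (x axis, positive downstream), in 1 track per list, with the gene body below. Bar height is the -log10 p of the peak, full at 40 or more, and colour gives the class of the region. Hdac4 shows peaks of the EGFP+ lists along its introns, Mef2a a group of them upstream of the gene, and Mef2b mostly promoters of neighbours.

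The sequences of 9 distal summits are shown first, and some of them were chosen after their values were seen. The counts, ranks and reads given below do not rest on them. Each is the 200 bases around the summit in GRCm39, read 5′ to 3′ on the plus strand, and capitals mark matches to the consensus letters searched. These were CAGCTG for an E-box, the site of bHLH factors, ACAAAG or ACAATG for SOX factors, TGTGGT for RUNX factors, TGTTTAC for FOX factors, TGANTCA for AP-1, and the consensus of MEF2, CTA and TAG with 4 letters A or T between them, on both strands. A match is a description of the letters and does not show binding. The first lies 63.4 kb upstream of Mef2a and had peaks in both EGFP+ lists and in neither EGFP- list.

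Mef2a 63.4 kb upstream, chr7:67085921-67086120: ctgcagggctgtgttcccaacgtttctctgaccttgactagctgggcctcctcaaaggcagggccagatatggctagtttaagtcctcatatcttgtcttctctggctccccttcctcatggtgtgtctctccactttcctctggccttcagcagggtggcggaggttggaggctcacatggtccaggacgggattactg

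The next 4 are from Mef2c. The summit 5.62 kb upstream of the main start site had a peak in all 4 lists, the pair 79.3 and 79.9 kb downstream, in intron 3 of the canonical transcript, in both EGFP+ lists and the limb EGFP- list, and the summit 126 kb downstream, in intron 6, in the limb EGFP+ list alone. The window at 79.9 kb held a SOX, a RUNX and a pair of FOX matches.

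Mef2c 5.62 kb upstream, chr13:83666697-83666896: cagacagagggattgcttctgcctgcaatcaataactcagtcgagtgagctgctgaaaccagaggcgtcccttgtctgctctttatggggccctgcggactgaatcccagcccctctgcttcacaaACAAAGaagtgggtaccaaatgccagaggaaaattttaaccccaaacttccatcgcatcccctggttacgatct
Mef2c 79.3 kb downstream, chr13:83751654-83751853: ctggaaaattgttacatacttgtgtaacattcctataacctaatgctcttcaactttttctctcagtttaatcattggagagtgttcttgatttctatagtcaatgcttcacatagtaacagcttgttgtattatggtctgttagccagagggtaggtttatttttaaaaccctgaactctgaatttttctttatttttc
Mef2c 79.9 kb downstream, chr13:83752244-83752443: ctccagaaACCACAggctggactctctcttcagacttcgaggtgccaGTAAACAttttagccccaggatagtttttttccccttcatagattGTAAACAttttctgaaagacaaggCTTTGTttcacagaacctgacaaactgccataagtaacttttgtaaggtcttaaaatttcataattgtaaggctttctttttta
Mef2c 126 kb downstream, chr13:83798041-83798240: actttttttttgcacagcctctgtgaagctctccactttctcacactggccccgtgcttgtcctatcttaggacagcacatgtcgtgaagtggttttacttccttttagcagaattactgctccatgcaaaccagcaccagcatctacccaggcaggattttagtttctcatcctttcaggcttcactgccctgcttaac

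The Mef2d pair sets a summit in intron 1, 7.44 kb downstream of the main start site, that had peaks in both EGFP+ lists beside a summit 35.6 kb downstream, past the end of the gene, that had peaks in all 4. The former held an AP-1 match and the latter a SOX match.

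Mef2d 7.44 kb downstream, chr3:88056975-88057174: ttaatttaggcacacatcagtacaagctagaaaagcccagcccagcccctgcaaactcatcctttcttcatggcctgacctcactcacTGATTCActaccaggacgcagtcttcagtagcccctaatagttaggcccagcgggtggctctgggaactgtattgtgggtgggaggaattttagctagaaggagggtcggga
Mef2d 35.6 kb downstream, chr3:88085157-88085356: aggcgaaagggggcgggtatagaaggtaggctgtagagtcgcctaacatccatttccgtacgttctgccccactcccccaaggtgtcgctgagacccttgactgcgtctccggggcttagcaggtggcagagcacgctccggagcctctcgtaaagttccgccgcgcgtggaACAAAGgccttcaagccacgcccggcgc

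The Hdac4 pair lies in introns 3 and 2, 144.7 and 100 kb downstream of the main start site, and both summits had peaks in the 2 EGFP+ lists and in neither EGFP- list. The window at 144.7 kb held an E-box, and that at 100 kb an E-box, a SOX and a RUNX match.

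Hdac4 144.7 kb downstream, chr1:91963223-91963422: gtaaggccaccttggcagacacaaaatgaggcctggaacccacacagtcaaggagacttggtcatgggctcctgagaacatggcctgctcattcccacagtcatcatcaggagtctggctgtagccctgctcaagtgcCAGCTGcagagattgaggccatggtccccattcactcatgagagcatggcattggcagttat
Hdac4 100 kb downstream, chr1:92007531-92007730: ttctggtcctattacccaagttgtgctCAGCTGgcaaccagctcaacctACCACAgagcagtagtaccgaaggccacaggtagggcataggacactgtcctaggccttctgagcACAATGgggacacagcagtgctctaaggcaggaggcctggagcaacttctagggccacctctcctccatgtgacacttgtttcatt

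All 5 genes had a peak at the main promoter in all 4 lists, which held for 44.6% of all protein-coding genes. In single lists the share of genes with such a peak was 51.7% for limb EGFP+, 48.8% for limb EGFP-, 49.7% for trunk EGFP+ and 49.9% for trunk EGFP-. At the promoter the genes therefore did not separate chondrocytes from the other cells by the presence of a called peak. They differed in its strength, with the highest ranks by -log10 p at Mef2a and Hdac4 and the fewest reads at Mef2c in each list. Under stricter filters on q, rank or fold the main promoter of Mef2c lost its trunk EGFP- peak, and that of Mef2d kept a peak in 2 or 0 lists.

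Mef2a lies on the minus strand at chr7:66880911-67022606. Its strongest promoter peak, with the summit 0.204 kb upstream of the start site, rested on 124 reads in the limb EGFP+ list (95% Poisson interval 103 to 148, counting error only), 122 in the limb EGFP- list (101 to 146), 80 in the trunk EGFP+ list (63.4 to 99.6) and 101 in the trunk EGFP- list (82.3 to 123). By -log10 p this peak stood among the top 0.0807%, 0.0728%, 1.35% and 0.13% of its list, in the same order. The interval of the trunk EGFP+ list did not overlap those of the limb lists and overlapped that of the trunk EGFP- list. A further peak at the same promoter, 0.743 kb upstream, was called in the EGFP+ lists alone, with 35 reads in the limb (24.4 to 48.7) and 33 in the trunk (22.7 to 46.3). It lay within 500 bp of the strongest promoter region, which had peaks in all 4 lists, and touched the start window of the noncoding gene Gm72692. No promoter of the other 4 genes had a separate EGFP+-only region in its main window.

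Hdac4, on the minus strand at chr1:91855937-92123421, had 99, 94, 86 and 81 reads at its strongest promoter summit in the order limb EGFP+, limb EGFP-, trunk EGFP+ and trunk EGFP-. Their counting intervals, the highest from 80.5 to 121 and the lowest from 64.3 to 101, all overlapped. The ranks were the top 1.78%, 1.82%, 0.403% and 2.07%. The peaks covered 825, 775, 918 and 819 bp of the window, and were split into 2 intervals in each limb list.

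Mef2b, on the plus strand at chr8:70592051-70620755, is the most divergent member of the family, and its main window also holds start sites of Borcs8 and Rfxank, so that the peaks there cannot be given to 1 gene. The window held a pair of regions with peaks in all 4 lists. The one 0.441 kb downstream had 93 reads in the limb EGFP+ list (75.1 to 114), 59 in the limb EGFP- list (44.9 to 76.1), 59 in the trunk EGFP+ list (44.9 to 76.1) and 62 in the trunk EGFP- list (47.5 to 79.5). The one 0.434 kb upstream had 79, 62, 66 and 61 reads. The limb EGFP+ list was the highest at both, and its counting interval overlapped those of the other lists. Its own alternative start sites, 13.1 and 19.3 kb downstream, had peaks in the limb EGFP+ list alone, with 10 reads (4.8 to 18.4) and 12 reads (6.2 to 21).

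Mef2c, on the plus strand at chr13:83652064-83815555, had the weakest main promoter peak by reads. The strongest summit had 42 reads in the limb EGFP+ list (30.3 to 56.8), 35 in the limb EGFP- list (24.4 to 48.7), 37 in the trunk EGFP+ list (26.1 to 51) and 17 in the trunk EGFP- list (9.9 to 27.2). The intervals of both limb lists and of the trunk EGFP+ list overlapped each other, and that of the trunk EGFP- list lay below the limb EGFP+ list and touched the other intervals only at its upper end. Within their lists the peaks stood at the top 35.8%, 22.3%, 26.5% and 71.6%. The peak was a single interval of 1423 bp in the limb EGFP+ list, among the widest 2.42% of that list, against intervals of 793, 781 and 734 bp in the other lists, each of which had a second, shorter interval in the window. An alternative start site 20 kb upstream had a peak in the trunk EGFP- list alone, with 10 reads, and another 48.2 kb downstream had peaks in both EGFP+ lists and the trunk EGFP- list, with 20, 13 and 12 reads in the limb EGFP+, trunk EGFP+ and trunk EGFP- lists. The 300 bases around the main start site, from 250 before to 50 after it, held 5 CpG dinucleotides, where the median over all genes was 11 and Mef2a, Mef2b, Mef2d and Hdac4 held 27, 20, 19 and 32.

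Mef2d, on the plus strand at chr3:88049185-88079398, combined many reads with low ranks. The summit of its main promoter peak, 0.752 kb upstream in the strongest list, had 116 reads in the limb EGFP+ list (95.9 to 139), 73 in the limb EGFP- list (57.2 to 91.8), 63 in the trunk EGFP+ list (48.4 to 80.6) and 50 in the trunk EGFP- list (37.1 to 65.9). The interval of the limb EGFP+ list lay above the others, but their strongest summits were elsewhere in the same region, at -0.408 to -0.302 kb from the start site. MACS2's local background there was 40.1, 25.5, 32.9 and 23.3 reads, against 3.84 to 9.98 at the strongest promoter peaks of the other genes, and it was highest where the reads were highest. The folds over background were 2.85, 2.79, 1.89 and 2.1, so the limb lists were close on this scale, and the peaks ranked at the top 25.8%, 35.8%, 75.7% and 73.8%. With a fold of at least 4 required, no list kept a peak at this promoter. The paper's methods name no control library, and whether the mark around the summit raised this local background was not tested. Regions 4.11 kb upstream and 0.824 kb downstream, which touched windows of other Mef2d start sites, had peaks in all 4 lists as well, with 101, 76, 80 and 60 reads for the former and 90, 72, 90 and 69 for the latter. In all the start windows of Mef2d carried 2877, 2378, 2690 and 1905 bp of peak, the most of the 5 genes in each list.

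**Figure D2:**
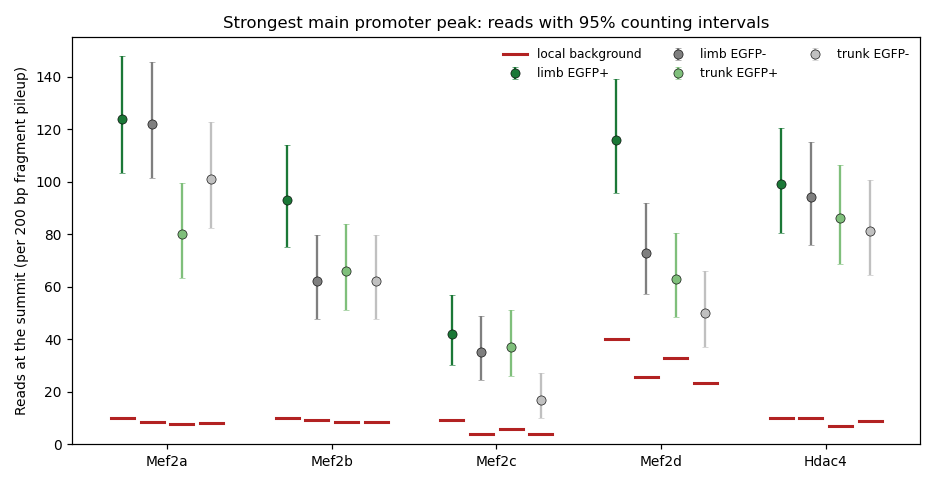
Reads at the summit of the strongest main promoter peak (y axis, reads in the pileup of fragments extended to 200 bp) for each gene (x axis), with 1 point per list, exact 95% Poisson intervals for counting error as bars and MACS2's local background as red lines. At Mef2b the strongest peak is the downstream one in limb EGFP+ and trunk EGFP- and the upstream one in the other lists. Mef2c has the fewest reads (17 to 42), and Mef2d stands on a background of 23.3 to 40.1 reads.

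The distal regions differed more between the fractions. Of the 56 distal regions, 32 had a peak in at least 1 EGFP+ list and in neither EGFP- list (EGFP+-only, 57.1%, exact binomial interval 43.2 to 70.3%), 11 were EGFP--only by the reverse rule (19.6%, 10.2 to 32.4%) and 13 had peaks in both fractions (shared, 23.2%). Over the whole genome 47.7% of the 40823 distal regions were EGFP+-only, 32.3% EGFP--only and 20% shared. The EGFP+-only share at the 5 genes was above that of the genome by less than its counting error. With the 20000 strongest intervals of each list, which takes away the difference in length between the lists, 13 of the 20 distal regions left at the 5 genes were EGFP+-only (65%, exact binomial interval 40.8 to 84.6%) and none was EGFP--only, against 37.4% and 36.9% of the 11534 distal regions left in the genome.

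**Figure D3:**
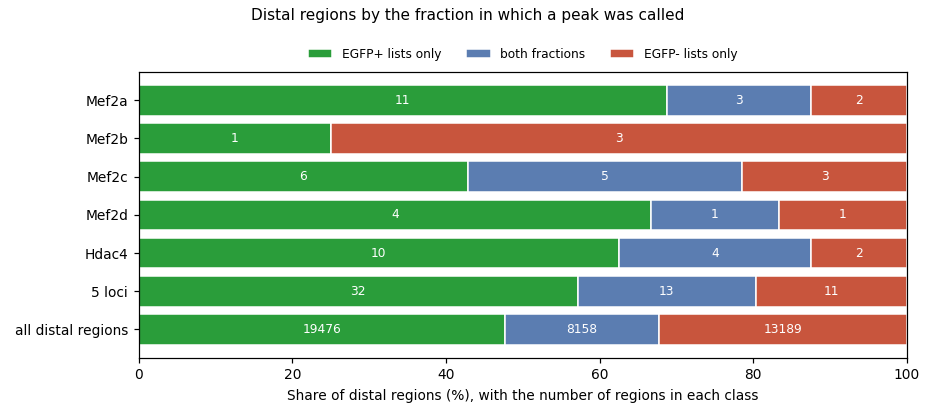
Share of the distal regions (x axis, percent) that had peaks in EGFP+ lists only, in both fractions or in EGFP- lists only, for each gene, for the 5 genes together and for all distal regions, with the number of regions in each bar. EGFP+-only regions are the largest class at Mef2a (11 of 16), Hdac4 (10 of 16), Mef2d (4 of 6) and Mef2c (6 of 14). They are also the largest class over all distal regions (47.7%), and their share at Mef2c (42.9%) is below that.

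By number, Mef2a had 11 EGFP+-only and 2 EGFP--only distal regions and Hdac4 had 10 and 2. At all protein-coding genes, counted in the same kind of window, the medians were 2 and 1. As many EGFP+-only regions as at Mef2a were found at 3.35% of the genes and as many as at Hdac4 at 4.52%. Both windows held 16 distal regions of any class, a number that 7.59% of the genes reached or passed, with a median of 4. By share, EGFP+-only regions made up 68.75% at Mef2a (exact binomial interval 41.3 to 89%) and 62.5% at Hdac4 (35.4 to 84.8%). Both intervals held the 47.7% of all distal regions. Mef2c had 6 and 3, Mef2d 4 and 1 and Mef2b 1 and 3, counts that 15.1%, 28.7% and 69.8% of the genes reached or passed for EGFP+-only regions. The window of Hdac4 spans 402 kb because its body reaches beyond 150 kb, whereas the other 4 span 300 kb.

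**Figure D4:**
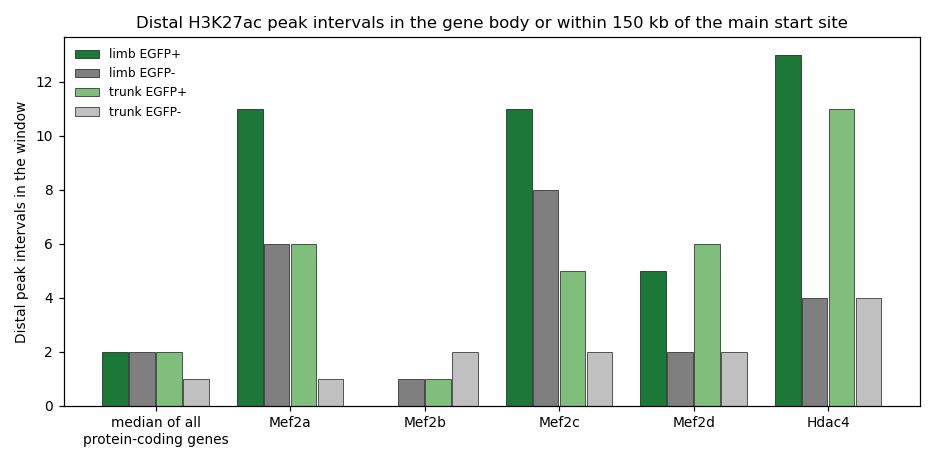
Number of distal peak intervals (y axis) in the window of each gene, with 1 bar per list, beside the median over all protein-coding genes. Hdac4 has 13 and 11 intervals in the EGFP+ lists and 4 in each EGFP- list, and Mef2c has 11 and 8 in the limb and 5 and 2 in the trunk.

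The number of distal intervals in limb EGFP+, limb EGFP-, trunk EGFP+ and trunk EGFP- was 11, 6, 6 and 1 at Mef2a, 13, 4, 11 and 4 at Hdac4, 11, 8, 5 and 2 at Mef2c, 5, 2, 6 and 2 at Mef2d and 0, 1, 1 and 2 at Mef2b. Over all genes the medians were 2, 2, 2 and 1, and the lists held 21238, 16111, 17767 and 12904 distal intervals in the genome, so that the EGFP+ list was the longer one in each tissue. In each tissue the EGFP+ list also had more intervals than the EGFP- list at 4 of the genes and fewer at Mef2b. Between the EGFP+ lists, Mef2a and Mef2c had more distal intervals in the limb than in the trunk, and the counts of Mef2d and Hdac4 differed by 1 and 2.

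The distal EGFP+ intervals at these genes were also higher in their lists than the EGFP- ones. Their median rank was the top 58.8% in limb EGFP+ and 64.6% in the trunk EGFP+ list, against 75.7% in limb EGFP- and 80.6% in the trunk EGFP- list. Over all distal intervals the medians were 67.9%, 69.2%, 70.2% and 72.4% in the same order. The median distal summit at the 5 genes had 22 and 21 reads in the EGFP+ lists and 15 in both EGFP- lists, and the median width was 384.5, 275, 317 and 293 bp in the order limb EGFP+, limb EGFP-, trunk EGFP+ and trunk EGFP-, against 327, 290, 319 and 298 bp over all distal intervals. The limb EGFP+ list alone was wider at the 5 genes.

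**Figure D5:**
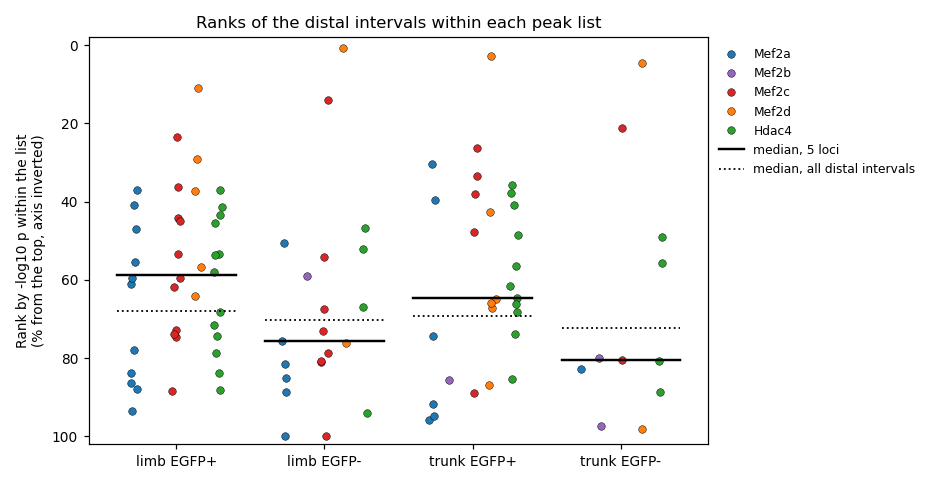
Rank of each distal interval at the 5 genes by -log10 p within its list (y axis, percent from the top, inverted so that strong peaks are high), in 1 column per list, with the median at the 5 genes as a solid line and that of all distal intervals as a dotted line. The solid line lies above the dotted one in both EGFP+ lists (58.8% and 64.6%) and below it in both EGFP- lists (75.7% and 80.6%).

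A missing peak can be a peak just under the threshold of the caller. For each region of 1 fraction the strongest summit was therefore set beside the number of reads at which the opposite fraction of the same tissue would have reached the lowest -log10 p in its list, if its background were the same. The lower 95% counting bound passed this number at 12 of the 32 EGFP+-only regions (37.5%, exact interval 21.1 to 56.3%) and at 0 of the 11 EGFP--only regions. Over the genome this held for 21.1% of the EGFP+-only and 11.9% of the EGFP--only distal regions. Of the 12 regions 6 were at Hdac4, 3 at Mef2a, 2 at Mef2d and 1 at Mef2c. At the other 20 EGFP+-only regions and at all 11 EGFP--only regions the bound did not pass this number. The reads of the opposite fraction are not known, and their counting error is not included. The summit used was also the strongest of a region called in its own fraction. A bound above the number therefore does not show a difference between the fractions. Neighbouring regions, such as those of Mef2d intron 1, are not independent of each other.

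Hdac4 had the most EGFP+-only regions that the tissues shared. Of its 10 EGFP+-only regions 5 had peaks in both the limb and the trunk EGFP+ list, against 3 of 4 at Mef2d, 1 of 11 at Mef2a and none at Mef2b and Mef2c, where 22.7% of all EGFP+-only distal regions did, and 14 of its 16 distal regions lay in its introns. The region 215 kb downstream, in intron 16 of 26, had 24 reads in the limb EGFP+ list (15.4 to 35.7) and 20 in the trunk EGFP+ list (12.2 to 30.9). The region 175 kb downstream, in intron 5, had 12 and 23 reads, and the region 144.7 kb downstream, in intron 3, had 16 reads in the limb (9.15 to 26) and 27 in the trunk (17.8 to 39.3). The trunk peaks of the latter regions were the stronger ones, but their counting intervals overlapped those of the limb.

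In intron 2 of Hdac4 a pair of neighbouring EGFP+-only regions lay about 100 kb downstream. The first, whose sequence with E-box, SOX and RUNX letters is given above, had 22 reads in limb EGFP+ and 20 in the trunk EGFP+ list. The second, 99.8 kb downstream, had 26 reads in the limb EGFP+ list alone (17 to 38.1). The fifth EGFP+-only region with peaks in both tissues lay upstream of the gene, at 22.8 kb, with 13 and 14 reads. Its limb and trunk peaks shared only 6 bp, so that an overlap of 50% made them 2 regions and left 4 with peaks in both tissues among 11, whereas the limb and trunk peaks of the other 4 shared 207 to 254 bp. All of these regions were weaker than the main promoter, and the strongest of them ranked in the top 35.8% of its list.

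Peaks in all 4 lists were found at 4 of the 56 distal regions of the 5 genes, against 8.12% of all distal regions, and 2 of the 4 were at Hdac4. Next to the promoter, 0.831 kb downstream in intron 1, there were 43, 34, 27 and 34 reads, and 49.9 kb downstream in intron 2 there were 23, 24, 23 and 21. The counting intervals of the 4 lists overlapped at both, so these regions did not separate the fractions. Both EGFP--only regions of Hdac4, 80.2 and 35 kb downstream, were peaks of 200 bp in the trunk EGFP- list alone, with 14 and 15 reads. The latter lay next to a shared region 35.6 kb downstream that lacked a trunk EGFP- peak of its own, and joined it when regions within 500 bp were merged.

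At Mef2a the distal peaks lay mostly upstream of the gene. Between 18.5 and 70.3 kb upstream all 8 distal regions were EGFP+-only. The strongest, 63.4 kb upstream, had 24 reads in the limb EGFP+ list (15.4 to 35.7) and 31 in the trunk EGFP+ list (21.1 to 44), and touched the start window of the noncoding gene Gm33926. It was the only EGFP+-only region of Mef2a with peaks in both tissues. The next by strength were in the limb EGFP+ list alone, 42.2 kb upstream with 27 reads (17.8 to 39.3), 70.3 kb upstream with 16 reads (9.15 to 26) and 129 kb downstream, in intron 8, with 18 reads (10.7 to 28.4). Of its 11 EGFP+-only regions 7 were of the limb EGFP+ list alone and 3 of the trunk EGFP+ list alone. Those 45.3, 70.3 and 109.9 kb upstream also touched start windows of noncoding genes, Gm51462, Gm73121 and Gm73130. Only 8 of the 16 distal regions had a Mef2a start site as the nearest one of a protein-coding gene.

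The shared regions 98.3 and 98.8 kb upstream lay next to each other and had peaks in both EGFP+ lists and the limb EGFP- list, with 23 and 32 reads in the limb EGFP+ list, 22 and 16 in the limb EGFP- list and 25 and 13 in the trunk EGFP+ list. The EGFP+ lists were not uniformly the higher ones there. The EGFP--only regions of Mef2a had 15 reads in the limb EGFP- list, 128 kb downstream, and 7 reads in the limb EGFP- list, 138 kb upstream. These ranked at the top 85.1% and 99.9% of that list, the latter among its weakest peaks. The former lay next to the EGFP+-only region 129 kb downstream, so that the limb fractions had separate peaks of 18 and 15 reads less than 1 kb apart.

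Mef2c had more shared distal regions than the other genes, 5 of 14. The region 5.62 kb upstream of the main start site had 42 reads in the limb EGFP+ list, 42 in the limb EGFP- list, 32 in the trunk EGFP+ list and 34 in the trunk EGFP- list. All 4 counting intervals overlapped, and in the trunk EGFP- list this peak (top 21.2%) was above that of the main promoter (top 71.6%). In the limb EGFP- list it stood in the top 13.9%.

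The pair of regions in intron 3, 79.3 and 79.9 kb downstream, had no trunk EGFP- peak. At the former there were 37 reads in the limb EGFP+ list (26.1 to 51), 19 in the limb EGFP- list (11.4 to 29.7) and 34 in the trunk EGFP+ list (23.5 to 47.5). At the latter, where the SOX, RUNX and FOX letters lie, there were 29, 17 and 32 reads in the same order. The EGFP+ lists were the higher ones at both, and the counting intervals of the limb lists overlapped. A further shared region 41.4 kb downstream, in intron 1, had the same lists, with 27, 16 and 21 reads.

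None of the 6 EGFP+-only regions of Mef2c had peaks in both tissues. There were 5 in the limb EGFP+ list alone, of which the strongest lay 126 kb downstream in intron 6 with 23 reads (14.6 to 34.5), the next 41.8 and 42.4 kb downstream in intron 1 with 22 reads each, and another 62.6 kb upstream with 20 reads. When regions within 500 bp were merged, 1 of the 6 was left, the one 126 kb downstream joined with its neighbour 124.8 kb downstream, and the others became part of a shared or promoter region. The EGFP--only regions were 119.9 and 131 kb downstream in the limb EGFP- list, with 13 and 12 reads, and 12.9 kb downstream in the trunk EGFP- list, with 11 reads. All 14 distal regions had a Mef2c start site as the nearest one, and 12 lay within its body.

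At Mef2d 3 of the 4 EGFP+-only regions lay close together in intron 1. The region 7.44 kb downstream had 40 reads in the limb EGFP+ list (28.6 to 54.5) and 32 in the trunk EGFP+ list (21.9 to 45.2), and the region 8.23 kb downstream had 29 reads in the limb (19.4 to 41.6) and 39 in the trunk (27.7 to 53.3). The 40 and 39 reads were the most at any EGFP+-only distal region of the 5 genes. The third, 7.13 kb downstream, had a peak in the trunk EGFP+ list alone with 29 reads. The local background was again high here, 7.84 to 12 reads, and the 3 regions became 1, the only EGFP+-only region of Mef2d then left, when regions within 500 bp were merged. The fourth, 59.1 kb upstream in an intron of Iqgap3, had 21 reads in each EGFP+ list.

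The strongest distal region of the 5 genes lay 35.6 kb downstream of the Mef2d start site, at chr3:88084212-88085886, and had 67 reads in the limb EGFP+ list (51.9 to 85.1), 99 in the limb EGFP- list (80.5 to 121), 71 in the trunk EGFP+ list (55.5 to 89.6) and 65 in the trunk EGFP- list (50.2 to 82.8). The limb EGFP- peak was the highest, among the top 0.812% of its list by -log10 p and the widest 0.792% with 1512 bp, and its counting interval overlapped those of the other lists at their upper ends. The region lies outside protein-coding genes and touches the start window of the noncoding gene 1700113A16Rik. The EGFP--only region of Mef2d, 119.7 kb downstream, had 11 reads in limb EGFP- and 8 in the trunk EGFP- list, and was the only EGFP--only region of the 5 genes with peaks in both tissues. Those peaks shared 26 bp, and were 2 regions of 1 tissue each where an overlap of 50% was required.

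Mef2b lies in a gene-dense stretch, where 12 of the 20 regions were at promoters of other genes, and no distal region had a Mef2b start site as the nearest one. Its single EGFP+-only region, 125 kb upstream, had 9 reads in the trunk EGFP+ list (4.12 to 17.1). The EGFP--only regions had 20 reads in the trunk EGFP- list 138 kb upstream, 9 reads in the trunk EGFP- list 19.8 kb upstream in an intron of Ncan, the gene of the nervous system proteoglycan neurocan, and 13 reads in the limb EGFP- list 65.5 kb downstream in an intron of Slc25a42. All 4 were peaks of 1 list.

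In the 200 bases around the distal summits none of the 56 regions held the MEF2 letters, which 0.296% of all distal regions did. The E-box was found at 8 (14.3%, against 13.9% of all distal regions), the SOX letters at 14 (25%, against 25.4%), the RUNX letters at 7 (12.5%, against 14.47%), the FOX letters at 3 (5.36%, against 2.8%) and the AP-1 letters at 2 (3.57%, against 5.35%). The shares at the 5 genes were thus near those of the genome for each consensus. The promoter of Mef2a held 1 match to the MEF2 letters within the 300 bases around its start site, as did 0.542% of all promoters, and those of the other 4 genes held none.

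The genes that act with MEF2 and HDAC4 were set beside them. Totals for a list of genes are sums over the windows of its genes, so that a region in more than 1 window counts more than once. Of the other class IIa deacetylases, Hdac7 had 12 EGFP+-only and 1 EGFP--only distal regions, Hdac5 had 7 and 7, and Hdac9, which is expressed in muscle and nerve, had 4 and 13. Hdac9 lacked a promoter peak in the trunk EGFP- list and Hdac7 in the trunk EGFP+ list. Summed over the 3 genes, 23 regions were EGFP+-only and 21 EGFP--only, and 1 of the 3 had more of the former, where 44.3% of all genes did.

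Of 12 genes that regulate HDAC4 and MEF2, 8 had a main promoter peak in all 4 lists and 3 in none, and of their distal regions 52 were EGFP+-only and 52 EGFP--only, with medians of 4 and 3.5 per gene and more of the former at 8 genes, fewer at 3 and as many at 1. Sik1 alone held 16 of the EGFP--only regions. Pthlh, which encodes the PTHrP signal that restrains hypertrophy, had promoter peaks in both EGFP+ lists and no EGFP- list, and 8 EGFP+-only and 5 EGFP--only regions. A main promoter peak in at least 1 EGFP+ list and in no EGFP- list, a looser rule, was found at 3.83% of all genes. Its receptor gene Pth1r had promoter peaks in all 4 lists, with 3 and 1. The salt-inducible kinases, which phosphorylate class IIa deacetylases, differed among themselves, with 8 and 6 at Sik3, 4 and 1 at Sik2 and 4 and 16 at Sik1.

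Among 9 genes of hypertrophic cartilage, several of them targets of MEF2C and RUNX2, 6 had no main promoter peak in any list, as had 44.1% of all genes. The distal regions were mostly of the EGFP+ fraction, with 76 EGFP+-only and 27 EGFP--only regions medians of 5 and 3 per gene and more of the former at 7 of the 9 genes. Runx3 had 22 and 3, Runx2 14 and 4, and Ihh, the signal of prehypertrophic cells, 14 and 0. Ihh and Runx2 had a promoter peak in the limb EGFP+ list alone, ranked at the top 83.3% and 71.3% of that list. Col10a1, the collagen of hypertrophic chondrocytes, had 5 and 4 distal regions and no promoter peak, and Mmp13 had no peak in its window.

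Of 13 muscle partners and targets of MEF2, 11 had no main promoter peak, Mamstr had one in both limb lists and Myog in the limb EGFP+ list alone, at the top 81.1%. Of their distal regions 43 were EGFP+-only and 30 EGFP--only, with medians of 2 and 2 per gene and more of the former at 9 genes, fewer at 2 and as many at 2. The share of genes with more EGFP+-only than EGFP--only regions was above that of all genes in the regulator, hypertrophy and muscle lists. All genes include those without any distal region, and the difference was not tested. The regulator, hypertrophy and muscle lists also had 21, 21 and 30 shared regions. By regions, the EGFP+-only part was below the 47.7% of all distal regions in the regulator and muscle lists. In the hypertrophy list it was above. Tnnt3 had 13 and 6, Myod1 0 and 5.

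The sorted fractions were checked by the promoters of marker genes. Of 7 chondrocyte markers 6 had a main promoter peak in each EGFP+ list, 3 in limb EGFP- and 2 in the trunk EGFP- list, and Acan, Matn1 and Fgfr3 had one in the EGFP+ lists alone. Col2a1 itself had one in both EGFP+ lists and in the limb EGFP- list. Of 4 muscle markers 3 had no promoter peak in any list and none had one in an EGFP- list. Tek, an endothelial gene, and Dcn, a connective tissue gene, had promoter peaks in both EGFP- lists alone. Of all genes 2.64% had one in at least 1 EGFP- list and in no EGFP+ list, which is a looser rule. The other endothelial genes, Pecam1, Cdh5 and Kdr, had no promoter peak in any list. No epithelial, blood or immune marker had a promoter peak. Of the other connective tissue markers Col3a1 had one in all 4 lists and Kera none, and of the neural markers Tubb3 had one in the trunk EGFP- list, Sox10 one in the limb EGFP+ list and Elavl4 none. MEF2 genes are active in muscle and endothelium as well as in cartilage, and the part of such cells in the shared and EGFP--only regions was not tested.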

How the data were processed

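H3K27ac ChIP-seq peak lists of 4 populations, 1 library each, were used. Before deposit the authors drew the same number of reads from every library (Seqtk), trimmed them (CutAdapt 1.18), mapped them with Bowtie2 2.3.5.1 to GRCm39, filtered them on mapping quality (Samtools) and called peaks and summits per library with MACS2 2.2.7.1, extending reads to 200 bp. The paper's methods name no control library and no q threshold. They give single-end reads of more than 1 length, and the labels' protocol names more than 1 sonicator, without saying which library had which. In the deposited files the score is MACS2's scaled −log10 q. The fold in the deposited files is the ratio of (reads + 1) at the summit to (local background + 1). The −log10 p values, and the −log10 q made from them, were computed by the authors with the Poisson model of MACS2 within each library.

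Here, rows that shared start and end became 1 interval with the values of the strongest summit, on chromosomes 1 to 19, X and Y, and intervals of the 4 lists overlapping by 1 bp or more were joined into regions. Promoter windows covered 168697 start sites (all transcripts of 21757 protein-coding genes) in GENCODE vM39 on GRCm39, the build of the files. Whole reads and the background at a summit were recovered from the fold and the −log10 p, within a tolerance of 0.001 in −log10 p for 100% of the summits looked at, every 20th of each list and all at the 5 genes. Intervals are exact (Poisson for reads, Clopper-Pearson for shares) at the 95% level. They cover counting error only, since 1 library per population gives no error between replicates, and they take the reads as independent. With 1 library per population no test was made. The code that joins intervals and recovers reads was run on simulated data, where 3000 of 3000 regions and the reads of 757 of 757 summits were recovered. The simulated regions lay far apart and the values were made with the same formula. The run therefore checks the code only, and the calling of peaks and the joining of close peaks were not tested.

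The members and gene lists were chosen with earlier results of these data known. The regions named are each main promoter, each alternative promoter with a peak, up to 4 EGFP+-only and up to 3 EGFP--only distal regions and up to 2 regions in all 4 lists per gene by −log10 p, any gene of the lists, and the 3 genes most like each member in distal intervals. Regions of interest beyond this rule, such as the shared regions of Mef2c and the neighbours of named regions, were chosen after their values were seen. Sequences were read from the GRCm39 genome. The software was matplotlib 3.10.9, pandas 2.3.3, pysam 0.24.0, numpy 2.4.6, scipy 1.17.1 and Python 3.11.15.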

Additional observations from a re-analysis of the deposited data

How the results depend on the processing

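No paired analysis was possible because the results are counts of called peaks in 1 library per population, which come from no test, and the groups share fewer than 2 replicate numbers. Values are in the order Mef2a, Mef2b, Mef2c, Mef2d, Hdac4 unless genes are named, and the cause of a change was not tested. With a −log10 q of at least 5, EGFP+-only distal regions fell to 5 at Mef2a and 0 at Mef2b, EGFP--only regions to 0, 1, 0, 0 and 0, the EGFP+-only share rose to 72.4% (52.2% over all distal regions), and the Mef2d main promoter kept a peak in 2 lists. With the 20000 strongest intervals per list there were 3, 0, 3, 2 and 5 EGFP+-only and 0 EGFP--only regions at all 5 genes, and 2 lists with a Mef2d promoter peak. With a fold of at least 4 there were 5, 0, 3 and 1 EGFP+-only regions at the Mef2 genes, 0, 1 and 1 EGFP--only regions at Mef2a, Mef2b and Mef2c and 0 at Hdac4, a share of 70.4% (51.6% over all distal regions), and 0 lists with a Mef2d promoter peak. The 50 kb window gave 6 and 0 EGFP+-only regions at Mef2a and Mef2b and 1, 1 and 0 EGFP--only regions at Mef2a, Mef2b and Mef2d. The 500 kb window gave 39, 14, 10, 11 and 22 EGFP+-only and 9, 11, 5, 7 and 11 EGFP--only regions, so that Mef2b then had more EGFP+-only ones. Keeping only regions nearest to the gene's own start site left 0 EGFP--only regions at Mef2a, Mef2b and Mef2d and 0 EGFP+-only regions at Mef2b. Where peaks were joined only if 50% or more of the shorter one was covered, Mef2d had 2 EGFP--only and Hdac4 11 EGFP+-only regions. Merging regions within 500 bp, an alternative chosen after seeing the data, gave 1 EGFP+-only region each at Mef2c and Mef2d and 1 EGFP--only region at Hdac4. Start sites of protein-coding transcripts alone moved no result (0 of 11). With a promoter window of 500 bp on each side 0 of 5 results were counted as moved, although the Mef2d main promoter then had a peak in 3 lists. A fall from 4 lists to 3 was not counted as moved. The Mef2c main promoter also kept a peak in 3 lists, all but trunk EGFP-, under the q, rank and fold filters each. Depth limits what a missing peak can show, since the median distal EGFP- peak at these genes rested on 15 reads.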

Other observations

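The genes most like each member were looked for by the number of distal intervals in the 4 lists, over all protein-coding genes outside the member's window, with the smallest sum of absolute differences over the 4 counts. For Mef2c the nearest was Ccnd2, the gene of the G1 cyclin D2, with 10, 8, 6 and 2 intervals in limb EGFP+, limb EGFP-, trunk EGFP+ and trunk EGFP- against 11, 8, 5 and 2 (difference 2), followed by Arhgap35 and Ceacam15 (difference 3, reached by 9 genes). For Hdac4 they were Echdc3, Ndufaf8 and Tepsin (difference 1), with 12 or 13 intervals in limb EGFP+ and 11 in trunk EGFP+, as against 13 and 11. For Mef2a they were Gtf2a1l and Lpar4 (difference 1) and Ptk2, the gene of focal adhesion kinase (difference 2). Dnm2, Gemin6 and Mtmr3 had the same 4 counts as Mef2d, as did 5 genes in all, and Aif1l, Alyreffm1 and Alyreffm3 the same as Mef2b, as did 19 genes in all. The likeness is over 4 libraries and in counts only.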
